A study of Mus musculus with 6 samples.

Results

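The genes described here are 10 markers of tissue macrophages, read in whole adrenal glands: Csf1r, Adgre1, Cd68, Lyz1, Lyz2, C1qa, C1qb, C1qc, Mrc1 and Cd163. They were taken by symbol, as every probe set whose platform annotation names exactly 1 gene and that gene is on this list, which gave 16 of the 44935 probe sets in the series. Csf1r, Lyz1 and C1qb had 3 probe sets each and the other 7 genes had 1 each. The tissue came from male mice aged 3 months of the strain Per2Brdm1/Cry1-/- (C57BL6x129Sv), which carry mutations in a pair of circadian clock repressors and which the labels call clock-deficient. After 2 weeks in a light-dark cycle they were moved to constant darkness, and glands were collected at 54 h (3 arrays) or at 46 h (3 arrays) after lights off. All 6 arrays share the genotype, sex and age, and wild-type glands were not analysed here, so the comparison is between 2 collection times in mutants alone. The arrays of a time are called 1, B and C, the first of them carrying no letter in its title. The labels do not say which animal each array came from, so p-values measure the spread between these arrays, which may be technical in part.

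Resident macrophages are scattered along the capillaries of the adrenal cortex and in the medulla, where they clear dying cells and debris. They depend on the receptor encoded by Csf1r for survival, carry scavenger receptors at the surface, and secrete lysozyme and C1q, the recognition molecule of the classical complement pathway. In a homogenate of the whole gland these transcripts come from a minority of cells, and fewer macrophages cannot be told apart from less RNA per macrophage.

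Lyz2, the 2 brighter of the 3 Lyz1 probe sets and part of the C1q genes read lower at 54 h, by less than 1.5-fold. The dim Lyz1 probe set read higher, and the brighter ones carry a mark for possible binding to other transcripts. The C1qb probe sets 1434366_x_at and 1437726_x_at carry it too. Adgre1 and 2 of the 3 probe sets of the receptor gene Csf1r had means closer together than the SD between arrays of a time. Lyz2, the lysozyme of macrophages, was 1.29-fold lower, C1qc 1.30-fold lower, the brighter Lyz1 probe sets 1.17-fold and 1.20-fold lower, and 2 of the 3 C1qb probe sets 1.19-fold and 1.10-fold lower. None of these differences passed the test, which was limma (moderated linear models across all probe sets) with Benjamini-Hochberg adjustment at 0.05. Of the 15 member probe sets kept by a filter on dim signals, 0 passed, against 0.115% of all probe sets kept (31 of 26961). That count over the whole table fell to 2 without 46 h array 1 or without 54 h array C and to 18 without 46 h array B, and was 65 without 54 h array 1 and 61 without 54 h array B; the count among the markers was 0 in each of these fits. At an unadjusted p under 0.05 in limma, 6 of the 15 were lower and 0 higher, where 5.75% of all probe sets kept were lower and 4.34% higher. With arrays centred on their medians, 5 of the 15 were lower, against 4.48% of all lower and 6.41% higher. These 6 probe sets belong to 4 genes, Lyz1, Lyz2, C1qb and C1qc, and several of them read the same or closely related transcripts.

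The lysozyme and C1q genes lie in groups, and the promoters of the members that read lower are shown for that reason. C1qb, C1qc and C1qa are neighbours on chromosome 4, in that order and with no other protein-coding gene between them, and Lyz2 and Lyz1 are neighbours on chromosome 10. The RefSeq promoter table (GRCm38.p6, 250 bases before to 50 after each start) held 7 of the 10 genes. Capitals mark GAGGAA, a form of the motif of the macrophage factor PU.1, which is an ETS protein. Other forms of the ETS motif were not searched. Both strands were searched, so the other-strand form reads TTCCTC. The promoters of Lyz2 (chr10:117282223-117282522, minus strand), Lyz1 (chr10:117292819-117293118, minus strand), C1qb (chr4:136886151-136886450, minus strand) and C1qc (chr4:136892865-136893164, minus strand) read 5′ to 3′ as follows.
Lyz2: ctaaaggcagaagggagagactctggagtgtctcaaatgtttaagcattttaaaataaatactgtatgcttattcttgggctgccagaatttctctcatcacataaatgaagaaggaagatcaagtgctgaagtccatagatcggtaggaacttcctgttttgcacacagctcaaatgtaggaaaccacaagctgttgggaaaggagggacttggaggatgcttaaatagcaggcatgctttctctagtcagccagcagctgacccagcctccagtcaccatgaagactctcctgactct
Lyz1: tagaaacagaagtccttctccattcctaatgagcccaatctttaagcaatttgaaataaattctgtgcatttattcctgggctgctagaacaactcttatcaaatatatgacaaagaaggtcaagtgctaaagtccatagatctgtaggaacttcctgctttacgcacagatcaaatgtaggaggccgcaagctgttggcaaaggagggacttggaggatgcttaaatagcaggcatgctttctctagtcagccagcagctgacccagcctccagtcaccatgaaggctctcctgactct
C1qb: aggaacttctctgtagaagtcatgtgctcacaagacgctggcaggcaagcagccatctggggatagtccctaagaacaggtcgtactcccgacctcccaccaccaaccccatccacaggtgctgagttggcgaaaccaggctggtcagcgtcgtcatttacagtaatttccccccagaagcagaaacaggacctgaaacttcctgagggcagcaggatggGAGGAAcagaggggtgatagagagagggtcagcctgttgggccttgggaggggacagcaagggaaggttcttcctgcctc
C1qc: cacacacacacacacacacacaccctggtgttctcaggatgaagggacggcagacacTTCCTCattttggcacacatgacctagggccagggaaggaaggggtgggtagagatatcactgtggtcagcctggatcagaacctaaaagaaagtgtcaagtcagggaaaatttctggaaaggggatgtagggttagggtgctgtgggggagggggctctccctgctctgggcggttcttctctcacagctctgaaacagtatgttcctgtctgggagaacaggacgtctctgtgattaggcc

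The Lyz1 and Lyz2 promoters were identical at 82.5% of aligned positions (249 of 302), compared with 44.9% for C1qb and C1qc and 43.6% for the unrelated pair Cd68 and Mrc1 under the same alignment. The C1qb promoter held GAGGAA starting 30 bases before the start site. The C1qc promoter held the reverse form of GAGGAA, 193 bases before the start. GAGGAA was in neither lysozyme window, which says nothing of other ETS forms. Among the 7 members with a promoter, 4 held GAGGAA, while 28.3% of the 32851 promoters in the table did. These matches describe the letters of the windows and nothing about binding.

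Lysozyme digests bacterial cell walls, and mice have a duplicated gene pair, with Lyz2 known from macrophages and other myeloid cells and Lyz1 from Paneth cells of the gut. The Lyz2 probe set 1423547_at read 3473, 3578 and 3509 units on 54 h arrays 1, B and C, against 4778, 4177 and 4727 on 46 h arrays 1, B and C. Every 54 h array lay below every 46 h array, and the 54 h arrays were also the more alike, at 3520 ± 53.3 units compared with 4560 ± 333 on 46 h arrays (SD, n = 3 each). The log2 change was -0.37 ± 0.06 SE (limma adjusted p = 0.0838), the smallest adjusted p of any member, and its 95% confidence interval ran from -0.51 to -0.23.

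Lyz1 was read by 3 probe sets that did not behave alike. Probe set 1436996_x_at read 5269, 5026 and 5163 units on 54 h arrays 1, B and C, against 6303, 5922 and 5870 on the 46 h arrays, which is -0.23 ± 0.05 SE on the log2 scale (adjusted p = 0.143 in limma). Probe set 1439426_x_at read 3981, 3907 and 3995 units at 54 h, against 4830, 4927 and 4539 at 46 h, or -0.26 ± 0.05 SE on the log2 scale (adjusted p = 0.117 in limma). In both, all 54 h arrays lay below all 46 h arrays. The ending _x_at is Affymetrix's mark for probe sets with probes that may also bind other transcripts, and whether these read Lyz2 RNA was not tested. The third, 1450822_at, without that mark, was dim and went the other way, with 109, 97.2 and 112 units at 54 h, against 88.0, 90.8 and 86.9 at 46 h. It lay under the filter and so had no test there; in a fit of all 44935 probe sets its log2 change was 0.22 ± 0.14 SE (limma adjusted p = 0.666).

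C1q is assembled from A, B and C chains, encoded by C1qa, C1qb and C1qc, and in many tissues macrophages are its main source. The C1qc probe set 1449401_at read 1460, 1639 and 1492 units on 54 h arrays 1, B and C, against 1971, 1807 and 2244 on the 46 h arrays. The groups did not overlap, and the log2 change was -0.38 ± 0.10 SE (limma adjusted p = 0.212), with an interval from -0.60 to -0.17. It was the only kept member whose 95% interval reached past a 1.5-fold change; the intervals of all 15 lay within 2-fold.

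For C1qb, 1417063_at read 2058, 2165 and 2215 units at 54 h, against 2468, 2428 and 2750 at 46 h, without overlap (log2 change -0.24 ± 0.07 SE, limma adjusted p = 0.312). Probe set 1434366_x_at was also lower on every 54 h array, with 4144, 3816 and 3888 units against 4307, 4389 and 4345 at 46 h (-0.14 ± 0.05 SE on the log2 scale, adjusted p = 0.43 in limma). The remaining one, 1437726_x_at, read 3038, 2321 and 2710 units at 54 h, on both sides of its 2582, 2628 and 2542 units at 46 h. Its log2 change was 0.05 ± 0.09 SE (limma adjusted p = 0.902), and the 54 h values differed among themselves more than the times did. Both _x_at probe sets of C1qb carry the mark for possible binding to other transcripts, which was not tested.

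C1qa did not share the lower reading. Its probe set 1417381_at gave 2319, 2367 and 2449 units at 54 h, against 2168, 2179 and 2750 at 46 h, so the 54 h arrays fell between the extremes of the 46 h arrays. The log2 change was 0.02 ± 0.10 SE (limma adjusted p = 0.972), with a 95% interval from -0.20 to 0.23, which overlaps the intervals of C1qb and C1qc; the difference between the chains was not tested. On 46 h array C, C1qa, C1qc and the C1qb probe set 1417063_at were all higher than on the other 46 h arrays, by 0.22, 0.17 and 0.11 above their 46 h means on the log2 scale.

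**Figure D1:**
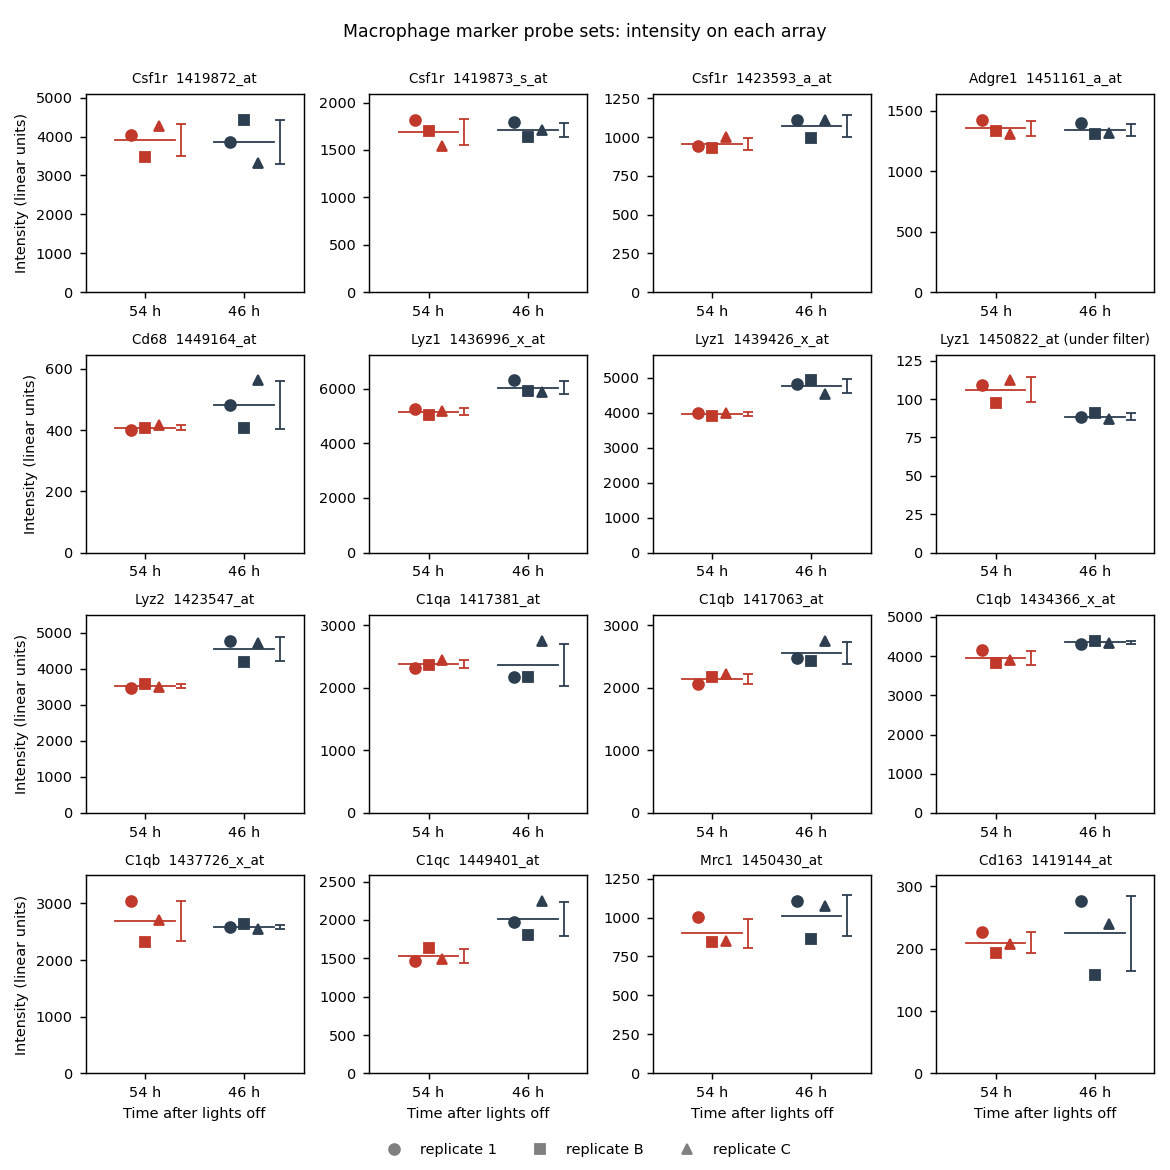
Intensity in linear units (y axis, from 0) of each of the 16 probe sets on the 54 h arrays (red, left) and the 46 h arrays (dark, right); symbols are replicates, horizontal lines group means and bars the SD (n = 3). Lyz2, the 2 brighter Lyz1 probe sets, C1qc and 2 C1qb probe sets have all 54 h points below all 46 h points, and the dim Lyz1 probe set 1450822_at has them above.

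Csf1r encodes the receptor for the growth factors CSF1 and IL-34. Its brightest probe set, 1419872_at, read 4035, 3461 and 4263 units at 54 h, against 3854, 4429 and 3310 at 46 h, and 1419873_s_at read 1818, 1697 and 1545 units against 1791, 1638 and 1708. Their log2 changes were 0.03 ± 0.11 SE and -0.02 ± 0.08 SE (limma adjusted p = 0.96 and 0.953). Probe set 1423593_a_at, the only one of the 3 listed with an accession in the annotation, read 940, 931 and 1000.1 units at 54 h, against 1110.3, 993 and 1111 at 46 h, or -0.16 ± 0.09 SE on the log2 scale (adjusted p = 0.587 in limma), with 54 h array C just above 46 h array B. The 3 probe sets also ordered the arrays differently. On 46 h array B, for example, they stood at 0.21, -0.06 and -0.11 relative to their 46 h means on the log2 scale. Neither ligand gene reached an unadjusted p of 0.05 in limma (0 of 2, median log2 change 0.02). Csf1 averaged 1195 ± 35.5 units at 54 h and 1195 ± 79.1 at 46 h, and Il34 averaged 382 ± 15.9 and 372 ± 52.7 (SD, n = 3 each).

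Adgre1, which encodes an adhesion receptor used as the classic surface marker of mouse macrophages, read 1425, 1331 and 1306 units at 54 h, against 1398, 1305 and 1316 at 46 h. Its log2 change of 0.01 ± 0.08 SE had a 95% interval from -0.17 to 0.19 (limma adjusted p = 0.97). Cd68, a glycoprotein of macrophage lysosomes, read 400.2, 408 and 415 units at 54 h, against 481, 406 and 563 at 46 h. Its 54 h values sat together at the level of the lowest 46 h array, and the log2 change was -0.23 ± 0.13 SE (limma adjusted p = 0.593).

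Mrc1 and Cd163 encode scavenger receptors of tissue-resident macrophages, the mannose receptor and the receptor for haemoglobin bound to haptoglobin. Mrc1 read 1003, 842 and 848 units at 54 h, against 1104, 860.5 and 1073 at 46 h, with overlap and a shift of -0.17 ± 0.12 SE on the log2 scale (adjusted p = 0.686 in limma). Cd163 read 227, 194 and 208 units at 54 h, against 276, 158 and 239 at 46 h, so that the 46 h arrays enclosed the 54 h arrays (log2 change -0.06 ± 0.19 SE, limma adjusted p = 0.943). Cd163 also had the largest SD among 46 h arrays of any member, 0.39 on the log2 scale.

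**Figure D2:**
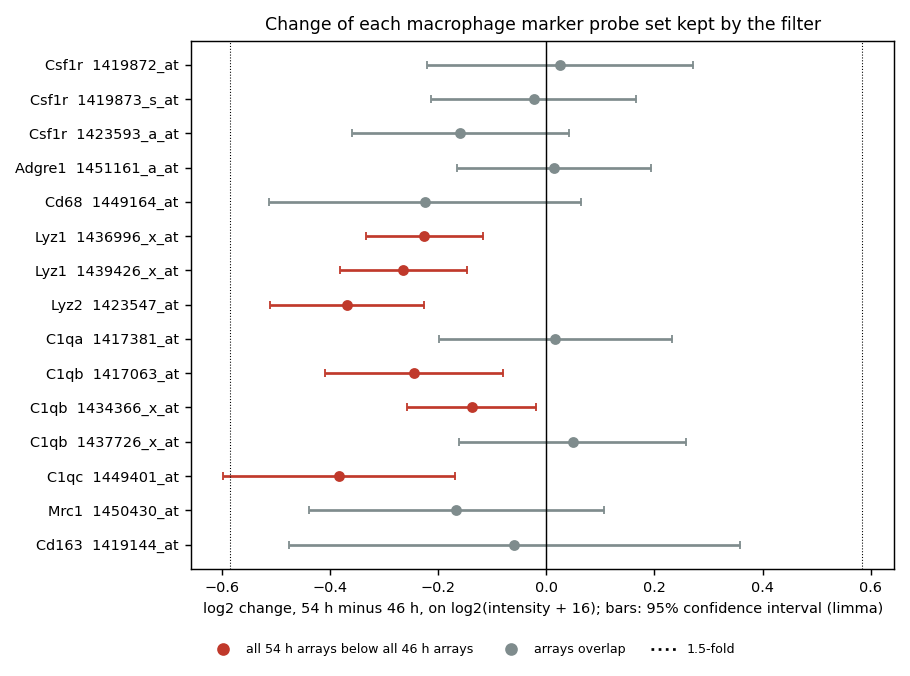
Log2 change, 54 h minus 46 h, of the 15 probe sets kept by the filter, with 95% confidence intervals from limma; red marks probe sets whose 54 h arrays all lie below their 46 h arrays, and dotted lines mark a 1.5-fold change. The 6 red probe sets belong to Lyz1, Lyz2, C1qb and C1qc, and only the C1qc interval, which ends at -0.60, crosses a dotted line.

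The bright probe sets of the lysozyme genes shared the lower reading on all 54 h arrays, but not the order of arrays within a time. Relative to their 46 h means on the log2 scale, 1436996_x_at and 1439426_x_at of Lyz1 stood at -0.19 and -0.26 on 54 h array 1, -0.26 and -0.28 on array B and -0.22 and -0.25 on array C. Lyz2 stood at -0.39, -0.35 and -0.37 on the same arrays, highest on array B, where both Lyz1 probe sets were lowest. On the 46 h arrays they parted too, with Lyz2 at -0.12 and the Lyz1 probe sets at -0.026 and 0.049 on array B. The C1qb probe sets parted on 54 h array 1, at -0.30, -0.07 and 0.23. Probe sets annotated to a gene were read on the same RNA samples and are not replicates of each other.

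**Figure D3:**
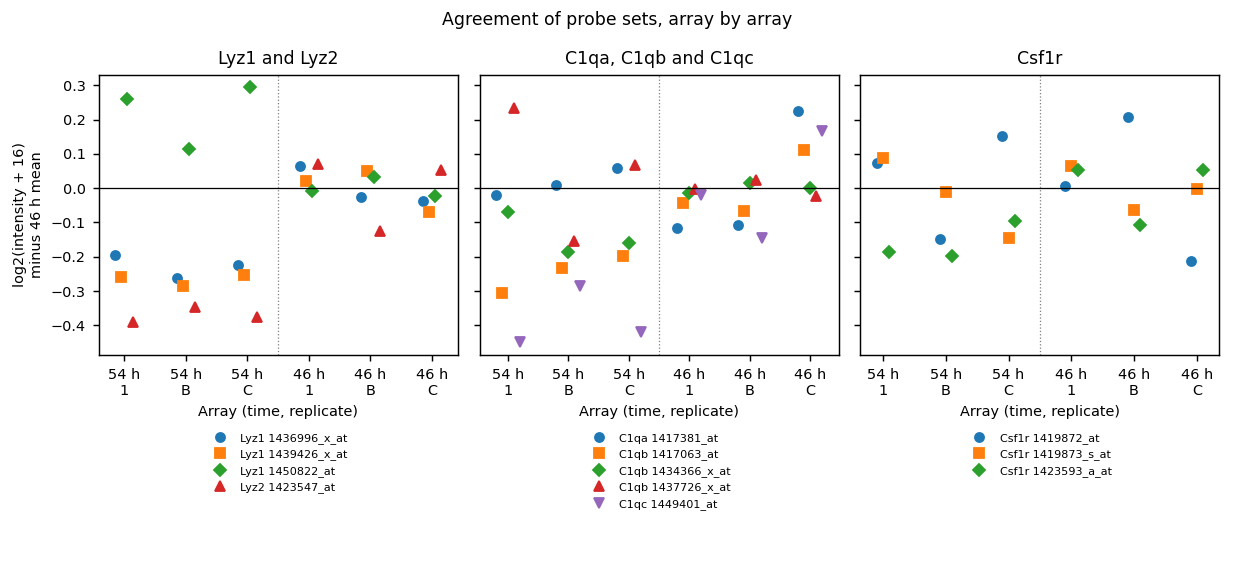
Log2(intensity + 16) of each probe set minus its own 46 h mean (y axis) on each of the 6 arrays (x axis, 54 h left of the dotted line, 46 h right), for the lysozyme genes, the C1q genes and Csf1r. Lyz2 and the brighter Lyz1 probe sets lie between -0.39 and -0.19 on all 54 h arrays, whereas 2 of the 3 Csf1r probe sets scatter around 0 and 1423593_a_at lies between -0.20 and -0.10 there.

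Over all kept member probe sets the median log2 change was -0.16, beside -0.02 over all 26961. It was -0.24 without 46 h array B. By sign, 11 of the 15 were lower and 4 higher at 54 h, and 6 of the 15 had every 54 h array below every 46 h array, against 9.05% of all probe sets kept. None had every 54 h array above every 46 h array (0 of 15), against 6.48% of all. The dim Lyz1 probe set 1450822_at did, but it lay under the filter and is not among the 15. With each gene read from its brightest kept probe set, the median was -0.15 over the 10 genes and -0.02 over all 13780 genes. Earlier results on these arrays had already shown Lyz1, Lyz2 and C1qc as lower, so these counts are no independent support for them.

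How far the probe sets stood above unspecific signal was judged from the 44 probe sets for olfactory receptors, genes the adrenal is not known to express. The 95th percentile of these ran from 424 to 538 units over the 6 arrays. On every array 13 of the 16 member probe sets exceeded it; Cd68 did so on 1 array, and Cd163 and the dim Lyz1 probe set on 0. Signal above that range was thus present for Csf1r, Adgre1, Mrc1, the C1q genes and the brighter lysozyme probe sets, whereas most values of Cd68 and all of Cd163 lay within it. As a check of the tissue, all 11 genes of adrenal cortex and medulla on the list used, Star and Th among them, averaged 4378 units or more.

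Other macrophage genes did not show a common shift. Of 30 listed, 29 had a probe set and 28 were kept. At an unadjusted p under 0.05 in limma 1 was lower and 1 higher, 0 passed after adjustment, and the median log2 change was -0.04, with 18 lower and 10 higher by sign. Tyrobp, the signalling adaptor of several myeloid receptors, read 1271, 1181 and 1226 units at 54 h, against 1434, 1473 and 1424 at 46 h, without overlap (log2 change -0.23 ± 0.08 SE, limma adjusted p = 0.343). Itgam, an integrin chain of macrophages, monocytes and neutrophils, was dim and read 192, 169 and 209 units against 112, 122 and 176 (log2 change 0.45 ± 0.17 SE, limma adjusted p = 0.429). Cd14, a coreceptor for bacterial lipopolysaccharide, had a log2 change of 0.20 ± 0.09 SE and Lgmn, a lysosomal protease, -0.25 ± 0.12 SE (limma adjusted p = 0.502 and 0.526). Every 54 h array lay above every 46 h array for Cd14. Of the 28 kept genes, 1 was lower and 2 were higher without overlap, against 9.05% and 6.48% of all probe sets kept. Spi1, which encodes the lineage factor PU.1, had a log2 change of -0.13 ± 0.12 SE. Mpeg1, which encodes a pore-forming protein of macrophages, read 1650 ± 87.9 units on 54 h arrays and 1676 ± 210 on 46 h arrays (SD, n = 3 each).

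Markers of other blood-derived cells were read as well. Of 7 pan-leukocyte genes 0 reached an unadjusted p of 0.05 in limma, and 6 were lower and 1 higher by sign (median log2 change -0.06). Ptprc, the common leukocyte antigen, had -0.24 ± 0.14 SE and Cd53, the 1 that was higher, 0.09 ± 0.13 SE. Of 13 monocyte and neutrophil genes 10 had a probe set and 6 were kept, with 0 at that level and a median of -0.0013. The neutrophil genes S100a8 and S100a9 lay under the filter, at 70.1 ± 18.8 and 57.6 ± 17.6 units on 54 h arrays and 57.1 ± 10.1 and 82.9 ± 12.5 on 46 h arrays (SD, n = 3 each). Of 15 lymphocyte and mast cell genes 14 had a probe set and 8 were kept, again with 0 at that level (median -0.01); Cd3e had 0.15 ± 0.17 SE. Of 9 kept MHC class II and dendritic cell genes, 7 were lower and 2 higher by sign (median -0.09). At that level 3 were lower and 0 higher, where 5.75% of all probe sets kept were lower and 4.34% higher. These were Cd74, the invariant chain, H2-Ab1 and H2-Aa, with log2 changes of -0.14 ± 0.04, -0.15 ± 0.05 and -0.11 ± 0.04 SE (limma adjusted p = 0.266, 0.346 and 0.38). The dendritic cell genes Flt3 and Zbtb46 had -0.06 ± 0.11 and -0.04 ± 0.13 SE.

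Mrc1 is also expressed by lymphatic and sinusoidal endothelium, so genes of those cells were read beside it. Of 10 endothelial and lymphatic genes 1 was lower and 0 higher at an unadjusted p under 0.05 in limma, and the median log2 change was 0.03. The lower gene was Kdr, a VEGF receptor, at 3349 ± 116 units on 54 h arrays and 3921 ± 74.2 on 46 h arrays (SD, n = 3 each; limma adjusted p = 0.204). Lyve1 and Stab1, which macrophages share with such endothelium, had log2 changes of 0.28 ± 0.17 and -0.20 ± 0.11 SE. Of 5 fibroblast genes 0 reached that level (median -0.16). Stroma varied with the array: on arrays 1, B and C the fibroblast list stood 0.06, -0.24 and -0.13 from its 46 h mean at 54 h, and 0.07, -0.20 and 0.13 at 46 h. The markers here stood at -0.12, -0.19 and -0.15 at 54 h, and at 0.05, -0.11 and 0.06 at 46 h.

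Hepatocyte and interferon-response genes were also read on these arrays. Of 11 hepatocyte genes, 10 had a probe set and 9 were kept; 2 of these rose in limma after adjustment, Serpina1b and Cyp3a11 (adjusted p = 0.0343 and 0.0424), and 8 of the 9 were higher at an unadjusted p under 0.05, against 4.34% of all probe sets kept. Summed over the list, hepatocyte signal ran from 8479 to 12579 units on 54 h arrays and from 3888 to 6101 on 46 h arrays. The liver's own macrophages, Kupffer cells, are marked by Clec4f, Timd4 and Vsig4, and the probe sets of these 3 genes were under the filter. Clec4f read 60.2 ± 17.4 units on 54 h arrays and 64.6 ± 13.2 on 46 h arrays (SD, n = 3 each). The Kupffer cell list summed to 1053 to 1148 units at 54 h and 974 to 1166 at 46 h; of its 5 genes Cd5l and Marco were kept, with log2 changes of 0.03 ± 0.10 and -0.04 ± 0.17 SE. Of 18 interferon-response genes kept, out of 20 listed, 9 were lower and 0 higher at an unadjusted p under 0.05 (median log2 change -0.22), against 5.75% of all probe sets kept that were lower, and 0 passed after adjustment. Usp18, an interferon-induced protease, and Irf7, a transcription factor of the response, had log2 changes of -0.71 ± 0.13 and -0.64 ± 0.13 SE (limma adjusted p = 0.0951 and 0.14). The interferon list summed to 12177 to 12763 units at 54 h and 14674 to 15672 at 46 h, and the 10 macrophage markers to 22661 to 23756 and 25633 to 26640 units. Bright probe sets weigh most in such a sum. Lyz1, read from 1436996_x_at, averaged 5152 units at 54 h and 6032 at 46 h, and Lyz2 3520 and 4560. That Lyz1 probe set carries the mark for possible binding to other transcripts. The unmarked Lyz1 probe set 1450822_at averaged 106 units at 54 h and 88.6 at 46 h. Of the 10 markers, each read from its brightest kept probe set, 7 were lower and 3 higher by sign. The part of the hepatocyte or interferon-response genes in the lysozyme and C1q values was not tested. All 11 adrenal genes were lower by sign, with a median of -0.06 beside -0.02 over all genes. At an unadjusted p under 0.05 in limma 1 of them was lower and 0 higher, against 5.75% and 4.34% of all probe sets kept.

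**Figure D4:**
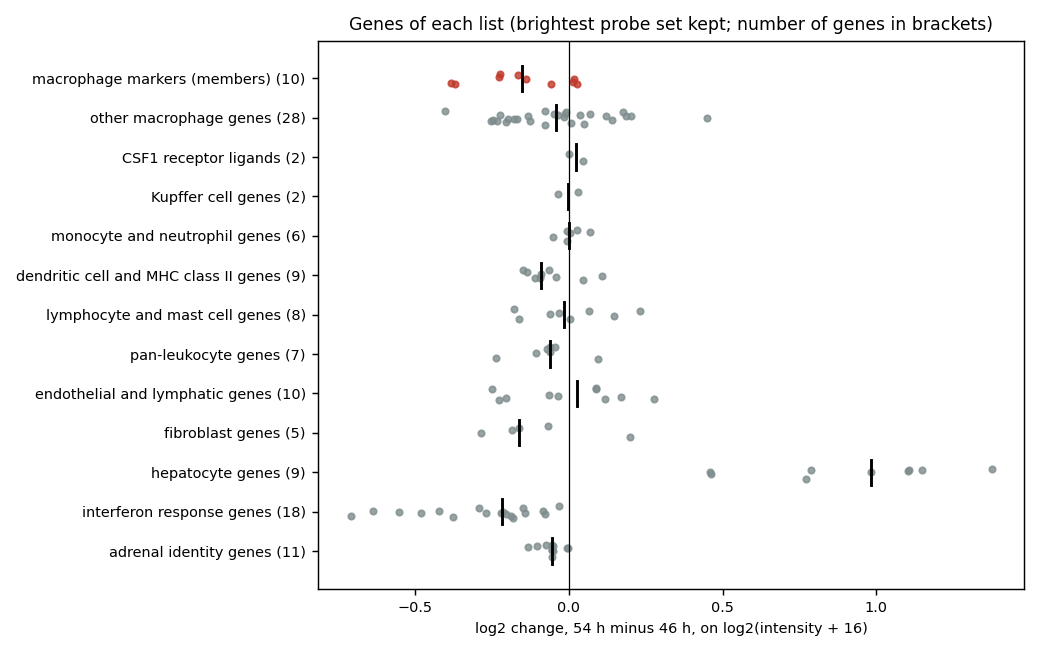
Log2 change, 54 h minus 46 h (x axis), of each gene of the macrophage markers (red) and of 12 other lists (grey), with the median of each list as a black bar and the number of genes in brackets. The macrophage marker median is -0.15 and that of other macrophage genes -0.04, while hepatocyte genes lie to the right (median 0.98) and interferon-response genes to the left (median -0.22).

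The genes whose pattern over the 6 arrays was most like the averaged C1q profile were found from the root mean square difference to the mean centred profile of C1qa, C1qb and C1qc on the log2 scale. That profile stood at -0.09, -0.07 and -0.09 on 54 h arrays 1, B and C, and at 0.03, 0.00 and 0.21 on the 46 h arrays. C1qb entered it through 1434366_x_at, which carries the mark for possible binding to other transcripts. Among 13780 genes the closest outside the list were Nadsyn1, an NAD synthetase, Rsl1d1, Elmod2, Pars2, a mitochondrial prolyl-tRNA synthetase, Ngly1, which removes N-glycans, Mrpl49 of the mitochondrial ribosome, Socs7 and the leukocyte surface gene Cd48. Their differences ran from 0.017 to 0.029, while the median over all genes was 0.14. The C1q genes that make up the average were themselves farther from it, with C1qb at 0.081, C1qa at 0.11 and C1qc at 0.12, so the genes named are like the average and not shown to be like any C1q chain. Among the other markers, Cd68 stood at 0.083, the brightest Lyz1 probe set at 0.094, Lyz2 at 0.12 and Csf1r at 0.23. With 6 arrays and this many genes, close matches describe these arrays and no more.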

How the data were processed

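Total RNA from whole adrenal glands was extracted with a column kit and labelled with biotin, per the labels' protocols, and each of the 6 samples was hybridised to 1 Affymetrix array. The authors deposited a linear intensity for every probe set in every sample; probe summary, background correction and normalization are not given in the sources used here. Array medians of the intensities were 204 to 217 units.

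Of 45001 probe sets, 64 controls, 1 without values and 1 with a damaged value (above 1e+05) were left out. Genes came from the platform annotation (34848 probe sets named 1 gene, 928 several, 9159 none); all 16 member probe sets matched RefSeq gene IDs (GRCm38.p6) with 0 symbols changed. Values were taken as log2(intensity + 16), and the offset compresses fold changes of weak signals. Probe sets with a mean above the 40th percentile (139 units) were kept, 26961 in all. The 54 h arrays were compared with the 46 h arrays in limma 3.58.1 under R 4.3.3 (lmFit, eBayes with an intensity trend, two-sided, Benjamini-Hochberg over all kept probe sets). A permutation of 3 against 3 arrays cannot go below p = 0.1, so none was run. For lists, each gene is read from its brightest kept probe set, and signals are summed per array over the brightest of all. Named from each list were up to 4 genes of smallest p and up to 2 well-known ones. The fit was also run on simulated data, and its outcome is not reported here. Noise was drawn independently for each probe set and array, so that run cannot show the effect of arrays of unequal quality. Promoters were aligned with Biopython 1.88, and plots made with matplotlib 3.10.9 under Python 3.11.15. Protein sequences were not used, and a further motif is not reported here. The members, lists and rules were chosen with earlier results of these data known. Alternatives covered scaling, filter, offset, variance model, array weights, a replicate block and leaving out each array.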

Additional observations from a re-analysis of the deposited data

How the results depend on the processing

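The number of arrays limits the precision, and the smallest adjusted p among the markers in limma, 0.0838, lay between 0.00219 and 0.404 over 16 alternatives. The count of probe sets past the test over the whole table, 31, was 47 with quantile normalization, 50 with arrays centred on their medians, 48 with a filter at the 60th percentile, 3 without an intensity trend, 61 with a robust fit, 3466 with array weights, and 2 to 65 when single arrays were left out. Among the markers the count past the test stayed at 0 in all alternatives but array weights, where it was 6 (Lyz2, both brighter Lyz1 probe sets, C1qc and 2 of C1qb) beside 12.9% of all probe sets kept; those weights rested on 54 h array C (4.26) and 46 h array 1 (2.86), with the others between 0.372 and 0.63. The markers' median log2 change, -0.16, ran from -0.24 to -0.12 when single arrays were left out and kept its sign in every alternative. The variance model and the replicate block do not alter it.

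Lyz2, the brighter Lyz1 probe sets, C1qc, 2 C1qb probe sets, 1423593_a_at of Csf1r, Cd68 and Mrc1 kept their direction in all 16 alternatives. Much of this was fixed in advance, since the filter, the variance model and the replicate block do not alter a probe set's estimate. Where the arrays of the times did not overlap, leaving out or weighting arrays or changing the offset could not turn the direction either. In all, 13 of 239 values changed sign, each of a probe set whose change was under 0.1 on the log2 scale. When single arrays were left out, the log2 change ran from -0.081 to 0.13 for Csf1r 1419872_at, from -0.079 to 0.038 for Csf1r 1419873_s_at, from -0.022 to 0.045 for Adgre1, from -0.042 to 0.13 for C1qa, from -0.043 to 0.15 for C1qb 1437726_x_at and from -0.28 to 0.10 for Cd163. Centring turned Csf1r 1419873_s_at to 0.0035 and array weights turned Adgre1 to -0.057. The cause was not tested. With the replicate block, which leaves the estimates unchanged, 0 markers passed (45 over the whole table), and the median stayed at -0.16. Whether the letters pair the samples is not known. Deviations from the group means of arrays of the same name correlated at -0.06, -0.41 and -0.49. Among arrays of unlike name, 54 h array B with 46 h array C gave 0.383, and 54 h array C with 46 h array B gave 0.46. The remaining pairs lay between -0.043 and 0.128. Deviations from a group mean cancel within the group by construction, so these correlations cannot decide whether the samples are paired.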
